A study of Mus musculus with 6 samples.

Results

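The MLL-AF9 fusion joins the genes that mouse annotations call Kmt2a (MLL) and Mllt3 (AF9). These parent genes were followed in platelet RNA together with Hoxa7, Hoxa9, Hoxa10, Meis1, Mecom, Pbx3, Mef2c and Myb, which are known targets or cofactors of the fusion protein in leukemic cells. The 10 genes were taken by symbol from a table of 14975 genes, and all 10 were listed in it. Their levels were read as a test for RNA of leukemic cells in the platelet preparations. Platelets came from the peripheral blood of C57BL/6 mice, and 3 control libraries were compared with 3 pre-AML libraries. The labels give the genotypes as WT and AML. Both groups were irradiated young adult females, and recipients were C57BL/6 or the congenic CD45.1 strain. Per the study's methods, the pre-AML mice received cells transformed by a retrovirus that carries MLL-AF9 and GFP (stem and progenitor cells at the outset), taken from primary recipients, and were bled 1 week later, while the controls received normal bone marrow. The week is not in the labels, which also mention 2 replicates per group and 3 to 4 mice pooled for a library. P-values therefore measure only the spread between these libraries.

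MLL is a histone H3 lysine 4 methyltransferase, and AF9 is a reader of acylated histones that recruits DOT1L and elongation factors. The fusion keeps the chromatin-binding part of MLL and the recruiting part of AF9, and it holds HOXA9 and MEIS1 expression at the level of a progenitor. In the megakaryocyte lineage, by contrast, Mllt3, Meis1, Mef2c and Mecom have normal roles in stem cells or in megakaryocyte formation. Platelets have no nucleus and carry RNA handed down from megakaryocytes. In bulk RNA, fewer cells of a type and less RNA per cell cannot be told apart. A gene-level value also does not separate the fusion transcript from the transcripts of its parent genes, and the species of the fusion cDNA is not given in the sources used here.

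The deposited values are FPKM, that is, reads relative to the length of a gene and the size of the library. Whole reads could be recovered from them, in total 11938851 to 13882789 per control library and 13548066 to 17794629 per pre-AML library. Pre-AML 3 stood apart. Its FPKM values were divided by 1.31 times its recovered reads, against 0.982 to 1.01 times in the other 5 libraries. The 11 platelet markers had a median log2 ratio to the control mean of -0.43 in pre-AML 3 and of -0.097 to 0.079 in the other libraries. Pf4, Ppbp and Gp9 led that list, whose summed level was 90379 to 114410 FPKM in controls and 61818 to 92835 FPKM in pre-AML platelets, with Gp6 and Ppbp, 2 of the 11, lower without overlap beside 5.74% of all genes. The summed level of 9 B cell markers was 0.311 to 1.17 FPKM in the controls and 0.363, 5.17 and 64.0 FPKM in pre-AML 1, 2 and 3. Of 12 monocyte and macrophage markers, 4 (33.3%) were higher in every pre-AML library than in every control, beside 7.53% of all genes of the table. The macrophage gene C1qb had 128 FPKM in pre-AML 3 against at most 0.457 FPKM elsewhere, and the monocyte gene Cd14 was at 0 in the 3 controls and pre-AML 1. The summed level of that list was 4665 to 5317 FPKM in controls and 4870 to 5342 FPKM in pre-AML platelets, most of it from Lyz2 and Fcer1g, both abundant in the controls too. Of 10 T and NK cell markers in the table, 5 (50%, beside the same 7.53%) were higher in every pre-AML library, and Ncr1 and Cd3g were at 0 in all controls (sums 19.1 to 28.9 FPKM in controls and 33.6 to 37.5 FPKM in pre-AML platelets). The part of these cells in the results below was not tested.

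The 3 members with the most abundant transcripts, Mllt3, Mef2c and Meis1, and Hoxa9, the most studied target of the fusion, are shown by the 250 bases before a RefSeq transcription start (GRCm38.p6, 5′ to 3′, the first listed start of each gene). They stand for members found in every library and for one found in few. Capitals mark letters of 4 motifs read on both strands, AGATAA for GATA factors, TGTGGT for RUNX, CGGAAG for ETS factors and TGAGTCA for NF-E2, or their reverse complements (CTTCCG for ETS), with no overlap between motifs in these windows.
Mllt3, chr4:88033408-88033657, minus strand: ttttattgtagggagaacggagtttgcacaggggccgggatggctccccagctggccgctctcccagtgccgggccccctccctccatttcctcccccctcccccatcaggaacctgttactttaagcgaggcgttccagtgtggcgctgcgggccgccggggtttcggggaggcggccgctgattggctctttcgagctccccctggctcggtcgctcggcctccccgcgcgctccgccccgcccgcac
Mef2c, chr13:83503784-83504033, plus strand: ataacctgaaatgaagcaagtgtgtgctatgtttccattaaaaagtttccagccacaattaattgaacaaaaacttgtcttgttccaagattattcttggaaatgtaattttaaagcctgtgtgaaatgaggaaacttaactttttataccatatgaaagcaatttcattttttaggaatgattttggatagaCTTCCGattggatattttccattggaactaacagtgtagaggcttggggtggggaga
Meis1, chr11:19018970-19019219, minus strand: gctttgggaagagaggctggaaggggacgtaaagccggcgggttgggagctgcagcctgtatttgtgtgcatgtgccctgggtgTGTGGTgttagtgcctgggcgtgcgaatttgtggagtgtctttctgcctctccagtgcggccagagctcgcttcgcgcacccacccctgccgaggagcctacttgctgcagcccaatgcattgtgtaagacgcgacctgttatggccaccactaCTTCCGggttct
Hoxa9, chr6:52227371-52227620, minus strand: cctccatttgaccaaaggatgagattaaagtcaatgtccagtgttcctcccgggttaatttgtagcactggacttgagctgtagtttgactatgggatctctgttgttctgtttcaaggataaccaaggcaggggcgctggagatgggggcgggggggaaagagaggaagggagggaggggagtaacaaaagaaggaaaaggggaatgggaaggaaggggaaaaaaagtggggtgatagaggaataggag
Meis1 held a RUNX motif 166 bases and an ETS motif 12 bases before the start, and Mef2c an ETS motif at 57 bases. The windows of Mllt3 and Hoxa9 held none of these letters. Starts were listed for 9 of the 10 members, and 3 of their 14 windows held a motif, whereas 36.8% of 32851 windows of all genes did (GATA 9.99%, RUNX 14%, ETS 13.6%, NF-E2 4.46%). A match is only a run of letters. Which start platelet transcripts used was not read from these data.

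In rank, though not in level, the members spanned most of the genes in the table. By mean FPKM over the 6 libraries, Mllt3 stood at rank 591 of 14975 genes, Mef2c at 1958 and Meis1 at 4819. Pbx3 followed at rank 8575, Kmt2a at 9784, Mecom at 10859 and Hoxa7 at 11275. Hoxa9, Hoxa10 and Myb were at ranks 13217, 14350 and 14553. The levels of Mllt3, Mef2c and Meis1 did not overlap in any library, nor did those of Meis1 and Pbx3. From Pbx3 downward, the range of each gene over the libraries overlapped that of the next, so their order is not fixed. Only Mllt3 and Mef2c reached the mean of 1 FPKM needed to enter the fit.

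**Figure D1:**
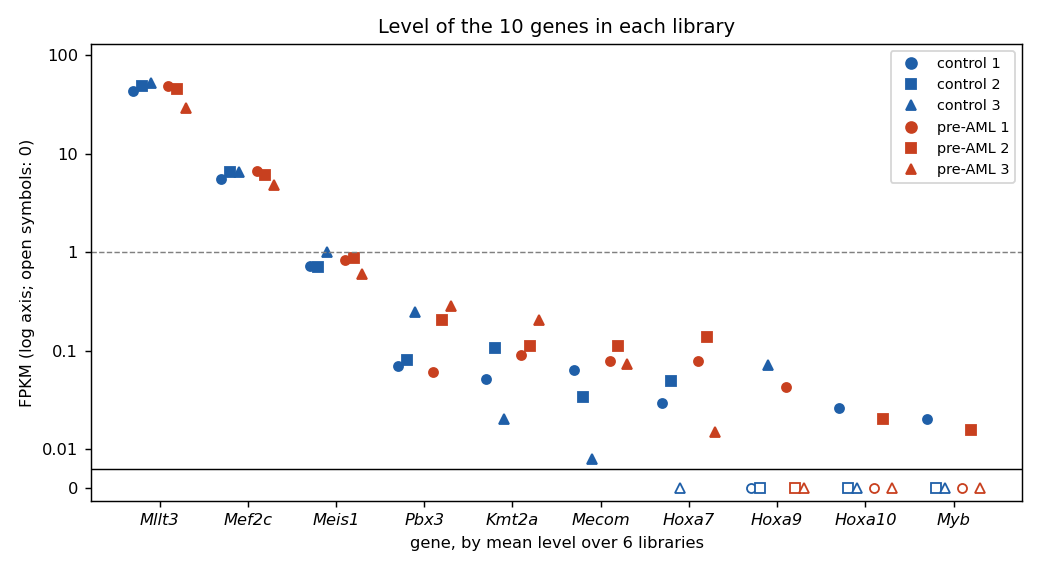
Level of the 10 genes in FPKM (log axis, with a separate strip for 0) in each of the 3 control (blue) and 3 pre-AML (red) libraries, with 1 symbol per library. The dashed line is the filter of 1 FPKM. Mllt3 lay between 29.0 and 52.8 FPKM, while Hoxa9, Hoxa10 and Myb were at 0 in 4 of 6 libraries each.

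No member was called different between pre-AML and control platelets. Of 4412 genes tested with limma-trend on log2(FPKM + 1), 1 was called higher (0.0227%, the cytotoxic granule gene Gzma) and 0 lower (0%) at an adjusted p under 0.05, while 113 were higher and 288 lower at an unadjusted p under 0.05. Of the 2 members tested, 0 were called in either direction, and 0 had an unadjusted p under 0.05. With no filter on low values, 0 of 14975 genes (0%) were called in either direction, and 497 were higher and 373 lower at an unadjusted p under 0.05. All 10 members then entered the fit, with 0 called and 0 at an unadjusted p under 0.05. Limma-voom on the recovered reads also called 0 of 4397 genes, with 94 higher and 332 lower at an unadjusted p under 0.05. It used the library sizes behind the FPKM values, so the larger divisor of pre-AML 3 stayed in place. The groups did not overlap for 1 member, Mecom, which was higher in every pre-AML library. That is 10% of the members, and 7.53% of all genes were higher and 5.74% lower without overlap. Leaving out 1 library added Kmt2a as higher (without control 2 or pre-AML 1), Hoxa7 as higher (without pre-AML 3) or Mllt3 as lower (without control 1), which made the count 2. In these settings 12.4%, 16.5% and 11.04% of all genes were higher (without control 2, pre-AML 1 and pre-AML 3) and 9.77% lower (without control 1).

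Mllt3, the AF9 gene (Entrez gene 70122, chr4:87769925-88033364 on the minus strand of GRCm38), was by far the most abundant member. Its level was 43.0, 49.1 and 52.8 FPKM in control 1, 2 and 3 and 48.3, 45.4 and 29.0 FPKM in pre-AML 1, 2 and 3. Pre-AML 1 and pre-AML 2 lay within the range of the controls, and pre-AML 3 lay below all other libraries. These values stood for 6055 to 8301 reads in every library. The mean was 48.3 ± 4.96 FPKM (SD, n = 3) in controls, and that of pre-AML platelets was 40.9 ± 10.4 FPKM (SD, n = 3). The log2 fold change was -0.26 with a standard error of 0.20 (limma-trend, adjusted p = 0.608), and the exact two-sided permutation test gave p = 0.4, where 0.1 is the smallest p possible. In pre-AML 3 its log2 ratio to the control mean was -0.74 in FPKM as deposited. On that scale the median platelet marker was at -0.43 and the lowest of the 11 at -0.84. Scaled to recovered reads, pre-AML 3 had 38.0 FPKM of Mllt3 and the other libraries 42.3 to 52.4 FPKM. Without pre-AML 3 the log2 fold change was -0.039, and after removal of length and GC trends it was -0.015 with the filter on low values and -0.21 without it.

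Kmt2a, the MLL gene (Entrez gene 214162, chr9:44803355-44881296, minus strand), had few reads despite its exon length of 16670 bases. Its level was 0.0511, 0.107 and 0.0202 FPKM in control 1, 2 and 3 and 0.0902, 0.111 and 0.206 FPKM in pre-AML 1, 2 and 3. The recovered reads were 10, 25 and 4 in the controls and 20, 28 and 80 in the pre-AML libraries. Pre-AML 3 was highest, and control 2 lay above pre-AML 1, so the ranges crossed (p = 0.2 in the exact two-sided permutation test). The ratio of the mean levels was 2.29. Scaled to recovered reads, pre-AML 3 had 0.270 FPKM of Kmt2a. In the fit with no filter, the log2 fold change on the log2(FPKM + 1) scale, which compresses low levels, was 0.10 with a standard error of 0.060 (limma-trend, adjusted p = 0.705). On recovered reads with the FPKM library sizes it was 1.40 with a standard error of 0.69 (limma-voom, adjusted p = 0.567). Without pre-AML 3 on the log2(FPKM + 1) scale it was 0.056. Pre-AML 3 was also the library with the B cell and macrophage markers given above. In FPKM, pre-AML 3 was the highest library for Kmt2a and the lowest for Mllt3. Reads per library were 4 to 80 for Kmt2a and 6055 to 8301 for Mllt3, so this comparison does not bear on a fusion transcript. Whether such a transcript added reads to either gene was not tested.

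**Figure D2:**
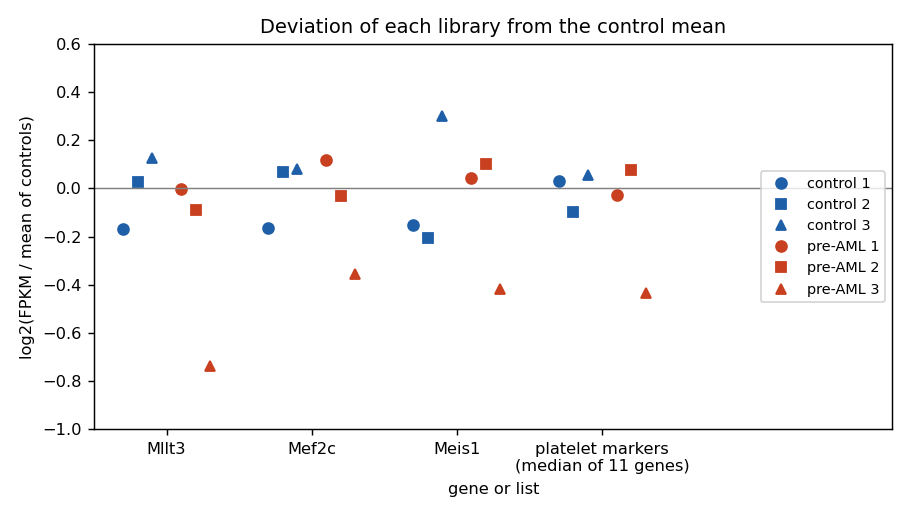
Log2 ratio of the FPKM in each library to the mean of the 3 controls (blue, controls; red, pre-AML) for Mllt3, Mef2c and Meis1 and, as a reference, the median over 11 platelet markers. Pre-AML 3 (red triangle) lies lowest in each column, at -0.74 for Mllt3 and -0.43 for the markers. The FPKM are as deposited, not scaled to recovered reads.

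Mef2c encodes a MADS-box transcription factor that acts in megakaryocyte maturation, and also in B cells and myeloid cells. Its level (Entrez gene 17260, chr13:83504034-83667080, plus strand) was 5.53, 6.49 and 6.55 FPKM in the controls and 6.72, 6.06 and 4.84 FPKM in the pre-AML libraries, from 743 to 1292 reads. Pre-AML 1 was the highest and pre-AML 3 the lowest of the 6 libraries. The log2 fold change was -0.072 with a standard error of 0.15 (limma-trend, adjusted p = 0.859), smaller than its error. Scaled to recovered reads, pre-AML 3 had 6.34 FPKM, inside the control range of 5.44 to 6.58 FPKM.

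Meis1 encodes a homeodomain cofactor that binds DNA with HOX and PBX proteins and is required for megakaryocyte development. It had 0.728, 0.702 and 0.997 FPKM in the controls and 0.835, 0.869 and 0.606 FPKM in the pre-AML libraries, from 90 to 149 reads (Entrez gene 17268, chr11:18879817-19018985, minus strand). Control 3 was highest, pre-AML 3 was lowest, and pre-AML 1 and 2 lay between the controls. Scaled to recovered reads, pre-AML 3 had 0.795 FPKM, above control 1 (0.716 FPKM) and control 2 (0.711 FPKM). The means were 0.809 ± 0.164 FPKM (SD, n = 3) and 0.770 ± 0.143 FPKM (SD, n = 3), and the exact two-sided permutation test gave p = 0.9. In the fit with no filter the log2 fold change was -0.031 with a standard error of 0.15 (limma-trend, adjusted p = 0.949). Unlike Hoxa9, Meis1 was detected in every library, and the ratio of its mean levels was 0.952.

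Pbx3, which encodes the third partner in HOX and MEIS complexes (Entrez gene 18516, chr2:34171457-34373142, minus strand), was measured at 5, 7 and 18 reads in the controls and 5, 19 and 41 reads in the pre-AML libraries. These correspond to 0.0697, 0.0814 and 0.248 FPKM and to 0.0615, 0.206 and 0.288 FPKM. Scaled to recovered reads, pre-AML 3 had 0.377 FPKM. Both groups held low and high libraries, with pre-AML 1 lowest of all and control 3 above pre-AML 2 (exact two-sided permutation test, p = 0.7). The log2 fold change with no filter was 0.064 with a standard error of 0.10 (limma-trend, adjusted p = 0.828), and without pre-AML 3 it was 0.00182.

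Hoxa9 encodes the homeodomain factor that most directly sustains MLL-rearranged leukemic cells. Hoxa7, Hoxa9 and Hoxa10 lie side by side on the minus strand of chromosome 6 (chr6:52214491-52221854, chr6:52223100-52231089 and chr6:52231197-52240854). Hoxa9 reads were found in 2 of 6 libraries. Control 3 had 0.0719 FPKM and pre-AML 1 had 0.0429 FPKM, which stand for 3 and 2 reads as the smallest whole numbers that give both values, and the other 4 libraries were at 0. In pre-AML 2 and pre-AML 3, which had 0 reads, 3 reads were taken as the floor and stood for 0.0567 and 0.0367 FPKM. A level up to this floor can give 0 reads. Levels below it can also be read, as in pre-AML 1, where the floor was 0.0643 FPKM. The highest value was that of control 3, at its floor of 3 reads. These floors cover counting error only, since reads carry no molecular identifiers.

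Hoxa10 and Myb (chr10:21124935-21160984, minus strand), the latter encoding a transcription factor of proliferating progenitors, were rarer still. Each was found in control 1 and pre-AML 2 and in no other library, with 1 read in each under the smallest whole-number solution. In pre-AML 1 and pre-AML 3, which had 0 reads, the floor of 3 reads was 0.0690 and 0.0393 FPKM for Hoxa10 and 0.0531 and 0.0303 FPKM for Myb. Hoxa7 had 1, 2 and 0 reads in the controls and 3, 6 and 1 reads in the pre-AML libraries. Its level was highest in pre-AML 2, at 0.138 FPKM, but pre-AML 3, at 0.0149 FPKM, was below control 1 and control 2 (exact two-sided permutation test, p = 0.3). Hoxa7, Hoxa9, Hoxa10 and Myb together had 3, 2 and 3 reads in the controls and 5, 8 and 1 reads in pre-AML 1, 2 and 3. The group totals were 8 reads in the controls and 14 in the pre-AML libraries, out of 37801026 and 46256828 recovered reads. Pre-AML 3, the most deeply sequenced library, had the fewest reads on these genes. Of the other rare members, it had the most reads on Kmt2a (80) and Pbx3 (41) and, with pre-AML 2, on Mecom (18).

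**Figure D3:**
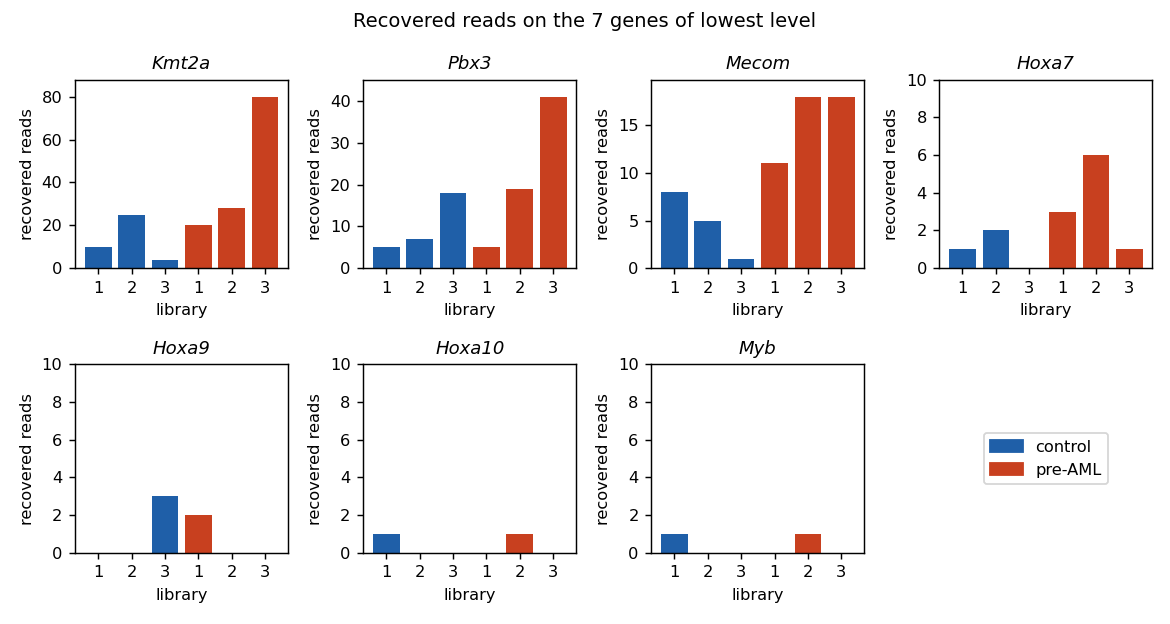
Recovered reads on the 7 members of lowest level in the 3 control (blue) and 3 pre-AML (red) libraries, with a linear axis from 0 that differs between genes. Kmt2a reached 80 and Pbx3 41 reads in pre-AML 3, while Hoxa9, Hoxa10 and Myb had at most 3 reads in any library.

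Mecom (Entrez gene 14013, chr3:29951296-30548008, minus strand) encodes EVI1, a zinc-finger factor of stem cells that is also active in megakaryocytes and is a marker of poor-risk leukemia. It had 0.0644, 0.0336 and 0.00795 FPKM in the controls and 0.0782, 0.113 and 0.0729 FPKM in the pre-AML libraries. Every pre-AML library lay above every control, in FPKM by a narrow margin between pre-AML 3 and control 1. Scaled to recovered reads, pre-AML 3 had 0.0956 FPKM and control 1 had 0.0634 FPKM. The reads behind these values were 8, 5 and 1 against 11, 18 and 18. The means were 0.0353 ± 0.0283 FPKM (SD, n = 3) and 0.0880 ± 0.0217 FPKM (SD, n = 3), a ratio of 2.49, with p = 0.1 in the exact two-sided permutation test, the smallest p that 3 against 3 libraries allow. In the fit with no filter the log2 fold change was 0.072 with a standard error of 0.038 (limma-trend, adjusted p = 0.705). On recovered reads with the FPKM library sizes it was 1.48 with a standard error of 0.86 (limma-voom, adjusted p = 0.597). Mecom also stayed apart with the libraries scaled to recovered reads and with any 1 library left out, settings in which 9.46% and up to 16.5% of all genes were higher without overlap. The gene-level value does not separate the EVI1 and MDS1-EVI1 transcripts.

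Markers of immature myeloid cells were compared in the same way, since the fusion was introduced into stem and progenitor cells. Kit and Flt3, the receptors of stem cells and early progenitors, had 0 reads in pre-AML 1 and pre-AML 2 and 2 reads each in pre-AML 3, while control 2 had 5 reads of Kit. Among the primary granule genes of granulocyte-monocyte progenitors, Prtn3 had 10 to 24 reads in the controls and 29, 12 and 117 reads in pre-AML 1, 2 and 3, with Mpo at 0 in all controls and 8, 4 and 0 reads in pre-AML 1, 2 and 3 and Elane at 2 reads in pre-AML 2 and Ctsg at 8 reads in pre-AML 1 alone. Cd34, a stem and progenitor cell antigen, had 97, 126 and 13 reads in the controls and 43, 31 and 50 reads in the pre-AML libraries, with means of 1.20 and 0.485 FPKM and ranges that overlapped. Of the 12 markers, Hlf was the only 1 higher in every pre-AML library than in every control, at up to 0.0450 FPKM, a share of 8.33% beside the 7.53% of all genes. The summed level of the list was 16.4 to 22.8 FPKM in controls and 15.5 to 19.6 FPKM in pre-AML platelets, most of it from Cd93, with Sox4 and Prtn3 next. Cd93 had 11.7 to 18.8 FPKM in controls and 10.5 to 14.8 FPKM in pre-AML platelets. Of the 3 markers tested, 0 were called in limma-trend. The platelets had been depleted of CD45-positive and Ter119-positive cells before RNA was extracted. The neutrophil list was at 3.16 to 3.66 FPKM in controls and 1.46 to 4.82 FPKM in pre-AML platelets, with S100a8, S100a9 and Mmp8 leading and 0 of 8 genes apart. The erythroid list (2351 to 2653 and 2377 to 2991 FPKM), with Hba-a1 and Hbb-bt its most abundant genes, had 1 gene higher (14.3%) and 1 lower without overlap among 7, beside 7.53% and 5.74% of all genes.

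The proteins that work with MLL and AF9 were mostly encoded by rare transcripts. Of 19 genes, which included menin (Men1), LEDGF (Psip1), DOT1L, ENL (Mllt1) and the WRAD core (Wdr5, Rbbp5, Ash2l and Dpy30), only Aff1 reached a mean of 1 FPKM, with 1.29 to 1.85 FPKM in controls and 1.56 to 1.99 FPKM in pre-AML platelets. Its log2 fold change was 0.063 with a standard error of 0.17 (limma-trend, adjusted p = 0.892), and 0 genes of the list were called. Aff4 had 0.640 to 0.935 FPKM over the 6 libraries. The groups did not overlap for Men1, Mllt1 and Wdr5, each higher in pre-AML platelets, which is 15.8% of the list beside 7.53% of all genes, and for 0 genes in the other direction. Men1, the adaptor that ties MLL to chromatin, had 3, 2 and 3 reads in the controls and 8, 12 and 84 reads in pre-AML 1, 2 and 3. Like Kmt2a it was highest in pre-AML 3, at 0.939 FPKM against 0.157 and 0.207 FPKM in pre-AML 1 and 2.

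Other genes reported to be driven by MLL fusions were compared in the same way. Of 25 genes, 20 were in the table, 7 were tested and 0 were called, with a median log2 fold change of -0.059 beside -0.055 over all tested genes. The most abundant were Mbnl1, an RNA-splicing regulator, with 103 to 113 FPKM in controls and 72.0 to 101 FPKM in pre-AML platelets, Hmga2, a chromatin architectural protein, with 24.3 to 28.1 and 15.4 to 28.3 FPKM, and Runx1, a megakaryocyte regulator, with 9.64 to 11.8 and 9.97 to 12.8 FPKM. Their log2 fold changes were -0.24, -0.27 and 0.13 (adjusted p = 0.581, 0.610 and 0.720 from limma-trend). Without overlap, 1 gene of the list was higher (Arid1b, 5% of 20) and 2 of 20 were lower (Mbnl1 and Eya1), beside 7.53% and 5.74% of all genes. Overlap in each list was read only in FPKM as deposited, not scaled to recovered reads. Mbnl1 was apart by a narrow margin, 102.8 FPKM in control 2 against 101.3 FPKM in pre-AML 2. Within the HOXA cluster, Hoxa5 had at most 2 reads in any library, while Hoxa4 had 13 reads in control 3, 16 reads in pre-AML 1 and at most 6 reads elsewhere. Myc had 3, 0 and 1 reads in the controls and 0, 7 and 157 reads in pre-AML 1, 2 and 3, so its groups overlapped.

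The paralogues placed these levels in their families. Mllt3 lay far above its only listed paralogue. The paralogue Mllt1 (ENL) was at 0 in all controls and had 3, 2 and 6 reads in the pre-AML libraries, or 0.0576, 0.0338 and 0.0656 FPKM. Mef2c was likewise above Mef2a (2.34 to 3.22 FPKM in controls, 1.86 to 2.14 FPKM in pre-AML platelets) and Mef2d (0.384 to 1.21 and 0.766 to 2.19 FPKM), and Meis1 above Meis2 and Meis3. Kmt2a was not the leading gene of its family, since Kmt2c had 0.386 to 0.708 FPKM over the 6 libraries. Of 17 paralogues in the table, 2 were tested and 0 called. Mef2a was lower in every pre-AML library (log2 fold change -0.31, standard error 0.15, adjusted p = 0.522 from limma-trend). The groups also did not overlap for Pbx2, which was lower, and for Kmt2b, Mllt1, Meis3 and Mybl2, which were higher (23.5% of 17 beside 7.53%). With Mef2a, 2 of the 17 were lower without overlap, beside 5.74% of all genes, again in FPKM as deposited.

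**Figure D4:**
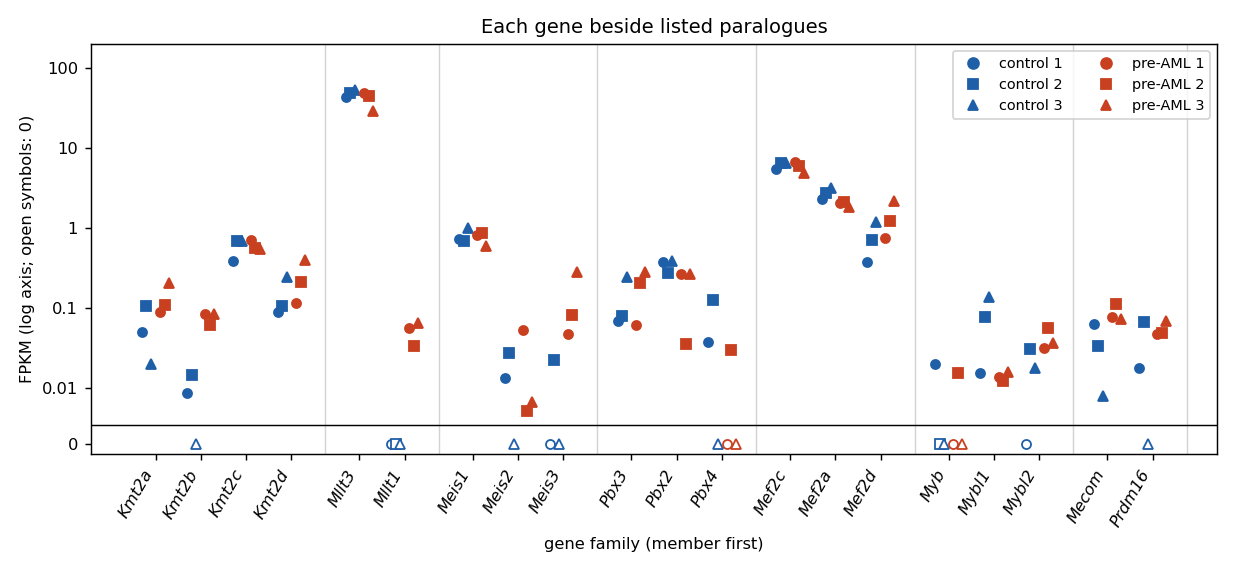
Level in FPKM (log axis, with a strip for 0) of 7 members, each first in its block, beside listed paralogues in the 3 control (blue) and 3 pre-AML (red) libraries. Mllt3, Mef2c and Meis1 lie above their paralogues in all 6 libraries, and Kmt2c lies above Kmt2a throughout.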

How the data were processed

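RNA was analysed from platelets of 3 control (WT) and 3 pre-AML (AML) libraries, prepared with SMART-Seq2 and Nextera XT. The authors mapped reads to mm10 with STAR and used DESeq2. They deposited FPKM values, 1 per gene and library, in a table whose counting program, strand setting and annotation are not given in the sources used here. Columns were matched to samples by name.

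The members and lists were chosen with earlier results of these data known. Exon lengths came from GENCODE M21 (GRCm38). FPKM times length and library size gave whole reads, within 0.02 reads, for 85.3% of values. Lengths came from GENCODE for 6 members. For Hoxa9, Mecom, Mef2c and Myb a length was searched that gave the smallest possible whole reads in all libraries. Among lengths giving these same reads, the one closest to whole numbers was used. In GENCODE, Kmt2a, Hoxa7, Meis1, Mecom and Myb overlap antisense genes, and Hoxa9 overlaps Mir196b, and without strand such reads cannot be told apart.

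FPKM values are not counts, so DESeq2, which the study used, was not applied. The 4412 genes whose mean reached 1 FPKM were compared as log2(FPKM + 1) with limma-trend (limma 3.58.1, R 4.3.3) and Benjamini-Hochberg adjustment. Single members were compared with exact permutation tests (scipy 1.17.1). Named genes were the members, the 3 most abundant genes of each list and list genes past the threshold (Gzma of the T and NK cell list, log2 fold change 2.80, adjusted p = 0.00809). Others were chosen after their values were seen, and some list genes are not reported here. Promoter windows are from RefSeq. Alternatives were other filters, pseudocounts and scalings, limma-voom on recovered reads, removal of length and GC trends by loess, a block and leaving out each library. Limma-voom took the library sizes behind the FPKM values, not the recovered totals.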

Additional observations from a re-analysis of the deposited data

How the results depend on the processing

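The count of called members was 0 in all 13 alternatives. The count of called genes was 1 and became 0 with no filter, with a pseudocount of 0.1 and no filter, scaled to recovered reads and with limma-voom. It was between 0 and 2 with 1 library left out. The count of members without overlap was 1, and 1 to 2 with 1 library left out. Scaling to recovered reads moved the median log2 fold change of all tested genes from -0.055 to 0.050. The log2 fold change of Mef2c (-0.072) turned to 0.040 scaled to recovered reads and 0.19 with length and GC trends removed (-0.010 with no filter), and ranged from -0.16 to 0.041 with 1 library left out. That of Meis1 (-0.031, no filter) turned to 0.023 and 0.016 in these settings and ranged from -0.073 to 0.042. The causes were not tested. Mllt3, Kmt2a, Mecom and Pbx3 kept their direction in all settings run. The fits of Kmt2a, Meis1, Mecom and Pbx3, which lie below the filter, the removal of trends with no filter for Mllt3 and Mef2c, and the overlap in unscaled reads were chosen after seeing the data.

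Deviations of same-numbered libraries correlated at -0.043, -0.12 and -0.17 across genes, so the numbers were not taken to pair them. With the replicate number as a block, 1 gene and 0 members were called. The 7 members of lowest level had 0 to 80 reads per library.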

Other observations

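Transcription factors that build megakaryocytes were also read in these libraries. Of 12 listed genes, 10 reached a mean of 1 FPKM, and Nfe2 (115 to 131 FPKM in controls, 114 to 133 FPKM in pre-AML platelets), Gata1 (67.7 to 94.1 and 64.4 to 85.5 FPKM) and Gfi1b (35.7 to 51.7 and 40.7 to 49.7 FPKM) led the list. Limma-trend called 0 of the 10, and the groups overlapped for all 12. The range of Mllt3 overlapped that of Gfi1b, and that of Mef2c overlapped the lower end of Mafg (6.53 to 9.37 FPKM over the 6 libraries). Zfpm1 (0.440 to 1.14 FPKM) and Etv6 (0.553 to 1.28 FPKM), of the same list, overlapped the range of Meis1. From which cells the transcripts of the members came was not tested.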
